A study of Mus musculus with 11 samples.

Results

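Expression of 9 basement membrane genes, the laminin chains Lama1, Lama2, Lama4, Lama5, Lamb1, Lamb2 and Lamc1 and the nidogens Nid1 and Nid2, was followed through tubular, podocyte, endothelial and stromal cells of mouse kidney. The genes are taken by symbol as a family of matrix genes, a choice made with earlier results of these data known. Each symbol matched 1 entry, and they are 9 of the 28692 genes in the count tables. The kidneys came from adult animals, male C57Bl/6 mice for which no transgene is named, and by the study's methods the injured mice were 10 weeks old when the injury was made. Single-cell RNA libraries were made from 5 Control suspensions (Ctrl, N1, N2, AN1 and AN2, naive animals), from 3 kidneys after unilateral ischemia-reperfusion (UIR, UIR1 and UIR2, a 30 min clamp of the left renal pedicle) and from 3 after unilateral ureteral obstruction (UUO, UUO1 and UUO2, a lasting tie of the left ureter), and injured kidneys were collected at day 28. The study compared both injuries with the naive kidney as models of fibrosis. By the study's methods these numbers are also those of the mice used, 3 for each injury and 5 naive, but the labels tie no library to an animal, and p-values measure the spread between libraries. No processing batch is labelled. The names N and AN occur for controls alone, while 1 library of each group (Ctrl, UIR and UUO) has a name without a number. In the empty droplets these 3 libraries held the most Lama5 of their groups, at 18.4, 40.1 and 78.7 CPM, and counts of calls without them are given with the alternatives.

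Basement membranes are thin sheets of matrix under epithelia and endothelia and around contractile cells. Laminin, a cross-shaped trimer of an α, a β and a γ chain, is assembled inside the cell, secreted and anchored at the surface by integrins and dystroglycan, and the nidogens link it to type IV collagen by binding the γ1 chain. In the kidney the α1 chain is known from tubular membranes, the α4 chain from vessels and the α5 chain from most mature membranes, and the glomerular filter depends on the β2 chain, whose loss causes congenital nephrotic syndrome. Since a trimer needs each of its chains, RNA of a single chain does not measure laminin protein.

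Cells were clustered and named from marker genes, and each name stands for cells resembling that type: proximal tubule (PT), loop of Henle (LOH), distal tubule (DT), principal (CD-P) and intercalated (CD-I) cells of the collecting duct, the cells that the study calls failed-repair tubular epithelium (frTEC), podocytes (Podo), endothelium (Endo), and the stromal classes Fibro 1 (Col1a1, Dcn), Fibro 2 (Acta2, Myh11) and Fibro 3 (Des, Itga8). Each of 64 marker genes was higher in its own class than in any other. The names were given from these same markers, so this describes the classes and is no independent check of them. Library totals ran from 91920461 to 110914244 UMIs (control), 82522753 to 117043590 (UIR) and 49503312 to 60918546 (UUO), from which 1858 to 2530, 4006 to 7443 and 3797 to 5279 cells per library were kept. Of the barcodes called as cells, 57.0 to 78.8% (control), 23.9 to 37.4% (UIR) and 3.15 to 8.03% (UUO) exceeded the limit of 30% mitochondrial UMIs and were left out, so the groups differ in what was lost. No pair of libraries shared more than 15 cell barcodes. UMIs (unique molecular identifiers, each marking 1 captured transcript end) were summed over the cells of a class in every library with at least 20 of them. Such a sum is called a pool, and levels are CPM, the gene's UMIs scaled to a common total for every pool, which need no correction for transcript length. In bulk sums of this kind fewer cells with the RNA and less RNA per cell cannot be told apart. Values by library are given in the order in which the libraries are named above.

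On mm10 (GRCm38, GENCODE vM21) the α chain genes lie at chr17:67697259-67822647 on the plus strand (Lama1), chr10:26980036-27619758 on the minus strand (Lama2), chr10:38965515-39110188 on the plus strand (Lama4) and chr2:180176373-180225859 on the minus strand (Lama5). Lamb1 lies at chr12:31265234-31329644 and Lamb2 at chr9:108479736-108490530, both on the plus strand, and Lamc1 at chr1:153218922-153332786 on the minus strand. The nidogens lie at chr13:13437551-13512269 (Nid1) and chr14:19751265-19811787 (Nid2) on the plus strand. RefSeq promoter windows (GRCm38.p6) were at hand for 5 of the 9 genes, Lama2, Lama5, Lamb1, Lamb2 and Nid1. The bases before the first transcribed base are shown for Lama5 and Lamb1, which rose in several tubular classes, and for Lamb2. The edgeR fit given below called Lamb2 higher in no tubular class, while some of its alternatives called it in PT or DT. Capitals mark the GC box, GGGCGG or its reverse complement CCGCCC.
Lama5, chr2:180225860-180226109, minus strand: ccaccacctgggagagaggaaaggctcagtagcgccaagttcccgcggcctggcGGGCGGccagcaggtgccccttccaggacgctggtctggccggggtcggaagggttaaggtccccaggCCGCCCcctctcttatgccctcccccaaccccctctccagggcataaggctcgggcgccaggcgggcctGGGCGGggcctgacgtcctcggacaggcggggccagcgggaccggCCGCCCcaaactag
Lamb1, chr12:31265043-31265233, plus strand: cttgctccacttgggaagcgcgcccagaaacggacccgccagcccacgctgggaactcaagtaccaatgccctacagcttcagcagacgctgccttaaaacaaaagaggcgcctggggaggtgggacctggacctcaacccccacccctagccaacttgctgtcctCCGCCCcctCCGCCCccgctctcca
Lamb2, chr9:108479612-108479735, plus strand: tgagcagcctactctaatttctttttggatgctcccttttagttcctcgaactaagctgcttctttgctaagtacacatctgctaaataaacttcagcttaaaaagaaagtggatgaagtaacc
The full windows of 300 bases, searched on both strands, held 4 GC boxes in Lama5, 2 in Lamb1, 1 each in Lama2 and Nid1 and 0 in Lamb2, while 35.7% of 32851 promoter windows held at least 1. GC content was 72.7% for Lama5, 63.7% for Lamb1 and 44% for Lamb2, and the median window had 52.7%. None of the 5 windows held TATAAA, found in 13.6% of windows, or the AP-1 letters TGANTCA, found in 7.81%. These matches describe letters and are not evidence of binding.

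In control kidneys the classes differed in their combination of chains. Of 81 mean control levels, 26 moved by more than 1 SD over libraries with a mitochondrial limit of 15%, among them Lamb1 in LOH, to 106 CPM in the 1 control pool that kept 20 cells, and 5 with the empty-droplet profile subtracted. The levels that follow are those at 30%. Among the α chains Lama5 was the broad one, at 89.3 ± 12 CPM in Podo, 86.8 ± 5.83 in Endo, 75.1 ± 7.16 in CD-P, 39.3 ± 4.6 in DT, 38.5 ± 8.76 in CD-I, 32.5 ± 10.8 in LOH and 16.1 ± 1.76 in PT (mean ± SD, n = 5 libraries). Podo, Endo and CD-P overlapped their neighbours in this order, as did DT, CD-I and LOH, and PT lay below all 6. Lama4 was at 56.8 ± 14.4 CPM in Endo and at 0 UMIs in the control pools of LOH, DT, CD-P, CD-I, frTEC and Podo. Lama1 was low throughout, at 9.4 ± 1.9 CPM in PT and 10.7 ± 11.2 CPM in frTEC (n = 3 pools), and no UMI of it was counted in a podocyte pool of any group. Lama2 was at 13.1 ± 13.4 CPM in the whole stroma and under 1 CPM on average in PT, LOH, DT, CD-P, CD-I, Podo and Endo.

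The β chains divided the classes between them. Lamb1, which encodes β1, was at 242 ± 32.2 CPM in LOH, 180.1 ± 18.9 in CD-P, 99.5 ± 6.48 in DT, 48.1 ± 5.86 in PT and 2.9 ± 2.95 in Podo. Lamb2, which encodes β2, was at 303 ± 21.5 CPM in Podo, 281 ± 81.8 in the stroma, 217 ± 23.5 in Endo and 0.8 ± 0.421 in PT. As a share of the UMIs of both β chains, Lamb1 made up 98.4 ± 0.818% in PT, 91.7 ± 3.31% in LOH, 82.2 ± 5.18% in CD-P, 80.8 ± 2.58% in DT, 39 ± 8.36% in CD-I, 19.7 ± 4.86% in Endo and 0.899 ± 0.882% in Podo. CD-I was thus the tubular class with the lowest Lamb1 share. Lamc1, the γ1 chain of most laminin trimers, was highest in Endo at 139.6 ± 25.4 CPM, with 63.1 ± 6.68 in CD-P, 44.5 ± 10.6 in Podo and 7.85 ± 1.41 in PT.

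**Figure D1:**
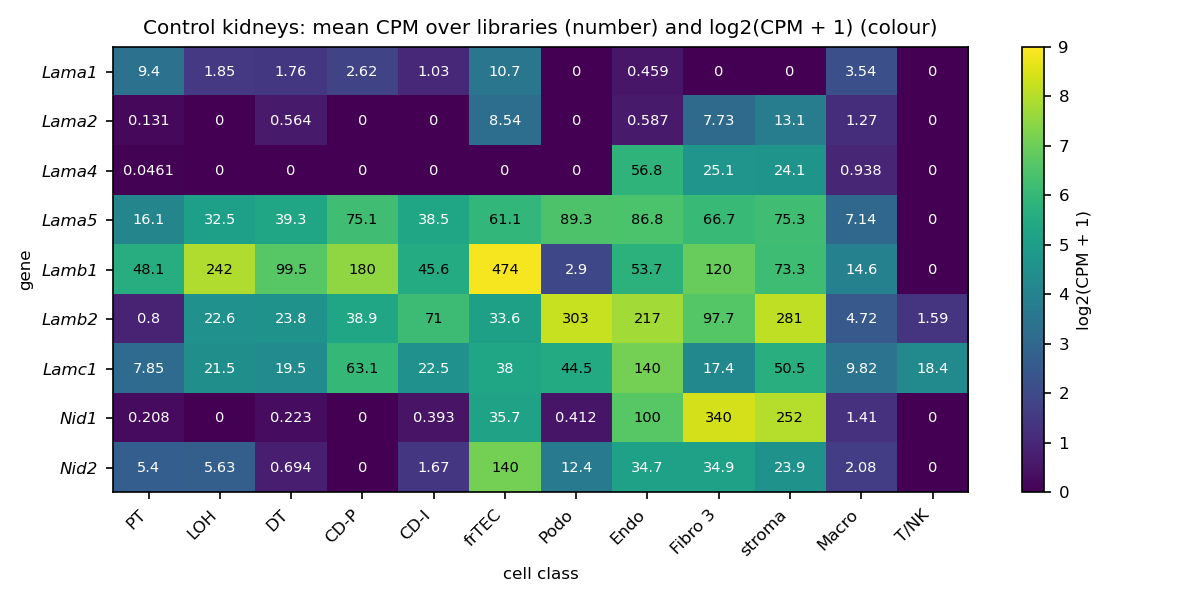
Mean level of each member in control pools by cell class, printed in CPM and coloured by log2(CPM + 1), with genes in rows and classes in columns. Lamb1 is the highest member in LOH, DT, CD-P, PT and frTEC, Lamb2 in Podo, Endo, stroma and CD-I, and Nid1 in Fibro 3.

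The nidogens were both found in endothelium and stroma. Nid1 was at 340.2 ± 118 CPM in Fibro 3 (n = 2 pools), 252 ± 87.7 in the whole stroma, 100.3 ± 19.5 in Endo and 11.3, 89.4 and 6.51 in the 3 frTEC pools, and under 1 CPM on average in PT, LOH, DT, CD-P, CD-I and Podo. Nid2 was at 139.7 ± 49.1 CPM in frTEC (n = 3 pools), 34.7 ± 3.38 in Endo, 23.9 ± 9.4 in the stroma and 12.4 ± 3.89 in Podo. In macrophages, which are not known for making basement membrane, control pools held 14.6 ± 13.5 CPM of Lamb1 and 9.82 ± 7.35 CPM of Lamc1, and the other members were lower.

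Changes with injury were tested class by class with edgeR's quasi-likelihood test on UMI counts, with Benjamini-Hochberg adjustment over all genes of the class, and "changed" means an adjusted p under 0.05. Of the 11 classes, those with enough pools gave 43 pairs of member and class that could be tested for UIR versus control. Of these pairs 10 (23.3%) changed, 7 up and 3 down, where 16.6% of all pairs of gene and class did. For UUO versus control 19 of 48 pairs (39.6%) changed, 16 up and 3 down, where 21.2% of all pairs did. Both comparisons share the control libraries. UUO was higher than UIR in 5 of 55 pairs (9.09%) and lower in 0, where 2.35% of all pairs differed. Pairs under the filter on low counts were not tested, so these are not shares of all members. The pairs lay in 8 classes for UIR versus control, none of them a Fibro class. They lay in 9 for UUO versus control, with Fibro 3 added, and in 10 for UUO versus UIR, without Fibro 3. The whole stroma is not in these counts. Fold changes come from TMM-scaled counts. Relative to scaling by the UMI total, TMM moved the log2 change against control by -0.24 and -0.25 in LOH (UIR and UUO), -0.32 and -0.44 in DT, and -0.32 and -0.35 in CD-I, so rises there are smaller, and falls larger, than in ratios of the CPM means. With scaling by the UMI total in place of TMM, added after seeing the data, 12 pairs were called in UIR (10 up and 2 down), 22 in UUO (19 up and 3 down) and 8 for UUO versus UIR, and calls that differ are given with each class. The share of all genes called with that scaling was not counted, so whether the added calls are particular to the members is not known.

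In the loop of Henle the α5, β1 and γ1 chains rose in both injuries and β2 was not called. Lama5 was at 36.7, 24.2, 48.7, 31 and 21.8 CPM in the control libraries, 77.1, 96.6 and 106 CPM in UIR and 84.3, 128 and 141 CPM in UUO. All 6 injured libraries lay above the controls, by 2.35-fold in UIR (log2 change 1.23, SE 0.22, adjusted p = 0.000191) and 2.92-fold in UUO (1.54, SE 0.22, adjusted p = 8.95e-06). Lamc1 was at 31.7, 9.69, 24.3, 22.5 and 19.1 CPM in controls, 46.5, 57.3 and 55.7 CPM in UIR and 53.4, 78.5 and 75.4 CPM in UUO. The injured libraries again lay above all controls, with log2 changes of 0.94 (SE 0.23, adjusted p = 0.00307) and 1.30 (SE 0.23, adjusted p = 9.43e-05). Lamb1 was at 254, 184, 259.7, 254 and 257 CPM in controls, 357, 428 and 450.1 CPM in UIR and 328, 419 and 443 CPM in UUO. It was the most abundant member of these cells in each group, its injured libraries lay above the controls, and its change was smaller, at 0.51 in UIR (SE 0.14, adjusted p = 0.00963) and 0.44 in UUO (SE 0.14, adjusted p = 0.0205).

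Lamb2 in LOH was at 22.6 ± 11.1, 34.2 ± 3.84 and 32.6 ± 6.05 CPM in control, UIR and UUO, with log2 changes of 0.21 (adjusted p = 0.553) and 0.12 (adjusted p = 0.763). The Lamb1 share of β chain UMIs was 91.7 ± 3.31%, 92.3 ± 0.0513% and 92.4 ± 0.273% in the 3 groups. Nid1 had 0 UMIs in control LOH and 58 UMIs in UUO (4.2 ± 1.04 CPM, adjusted p = 0.0174), at least 2.52-fold higher on a floor of 3 UMIs over the control group. That level is no higher than 4.96 ± 1.04 CPM in UUO macrophages but above 1.39 ± 0.745 CPM in UUO T and NK cells (T/NK). It lies below 29.7 to 40.3 CPM in the empty droplets of the same libraries. An empty-droplet CPM is a share of the RNA outside cells, not the level that this RNA adds to a pool. With the empty-droplet profile subtracted the gene could not be tested in LOH, and the source of these UMIs was not tested. Nid2 in LOH was at 3.34, 0, 2.71, 8.45 and 13.7 CPM in controls, 2.48, 2.62 and 2.48 CPM in UIR and 3.71, 2.19 and 1.67 CPM in UUO, from 11 control UMIs. Its libraries overlapped and edgeR did not call it (-1.44, adjusted p = 0.0792 in UIR and -1.37, adjusted p = 0.0922 in UUO), while DESeq2 called it lower in both injuries (-1.47, adjusted p = 0.0238 and -1.39, adjusted p = 0.0374), and edgeR called it lower in UUO without Ctrl, UIR and UUO together (-2.09, adjusted p = 0.0444). Members changed in 3 of 7 tests in UIR (all genes: 31.1%; 4 by DESeq2) and 4 of 7 in UUO (all genes: 36.7%; 5 by DESeq2), in a class where many genes of all kinds moved. Control pools held 34 to 57 cells against 391 to 505 in UIR and 158 to 361 in UUO. The Lamb1 change was lost for UIR without UIR1 or UIR2 (adjusted p up to 0.0546) and for UUO without UUO1 or UUO2 or with pools of at least 50 cells (up to 0.0773).

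In the distal tubule the β1 chain changed most. Lamb1 was at 94.5, 102, 109, 99.4 and 92.8 CPM in controls, 259, 284 and 386 CPM in UIR and 444, 422 and 505 CPM in UUO. The 3 groups did not overlap, and the rise was 2.49-fold in UIR (log2 change 1.32, SE 0.13, adjusted p = 3.42e-08) and 3.42-fold in UUO (1.78, SE 0.13, adjusted p = 8.77e-11). Both calls held in every alternative that gave a value, 23 for UIR and 22 for UUO. The difference between the injuries passed the test (0.46, SE 0.14, adjusted p = 0.0478) but was lost in 16 of 22 alternatives, among them leaving out N1, N2, AN1, AN2, UIR, UIR1, UUO or UUO2 (adjusted p up to 0.395).

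Of the partner chains of Lamb1 in DT, Lama5 rose in both injuries and Lamc1 in UUO. Lama5 was at 33.3, 39.3, 42.7, 36.6 and 44.7 CPM in controls, 63.1, 74.3 and 75.1 CPM in UIR and 77.3, 114 and 110.0 CPM in UUO, again with all injured libraries above the controls. Its log2 change was 0.55 in UIR (SE 0.16, adjusted p = 0.00875; 0.0619 with a mitochondrial limit of 50%) and 0.99 in UUO (SE 0.16, adjusted p = 1.56e-05). Lamc1 rose in UUO from 19.5 ± 2.69 to 51.1 ± 8.26 CPM (0.88, SE 0.20, adjusted p = 0.00104) and was at 28.9 ± 5.54 CPM in UIR (0.22, SE 0.20, adjusted p = 0.464). Lamb2 was at 23.8 ± 4.92, 37.4 ± 0.673 and 45.4 ± 11.4 CPM, with log2 changes of 0.33 (adjusted p = 0.224) and 0.41 (adjusted p = 0.125). By the UMI total Lamb2 was called in both injuries (0.64, adjusted p = 0.0123 and 0.85, adjusted p = 0.0017), Lamc1 in UIR (0.53, adjusted p = 0.0449), and Lama5 and Lamc1 for UUO against UIR (0.56, adjusted p = 0.0442 and 0.78, adjusted p = 0.0253). The Lamb1 share of β chain UMIs was 80.8 ± 2.58% in controls, 89 ± 2.06% in UIR and 90.9 ± 2.49% in UUO. In all 2 of 4 members tested changed in UIR (all genes: 30.1%) and 3 of 4 in UUO (all genes: 41.7%).

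**Figure D2:**
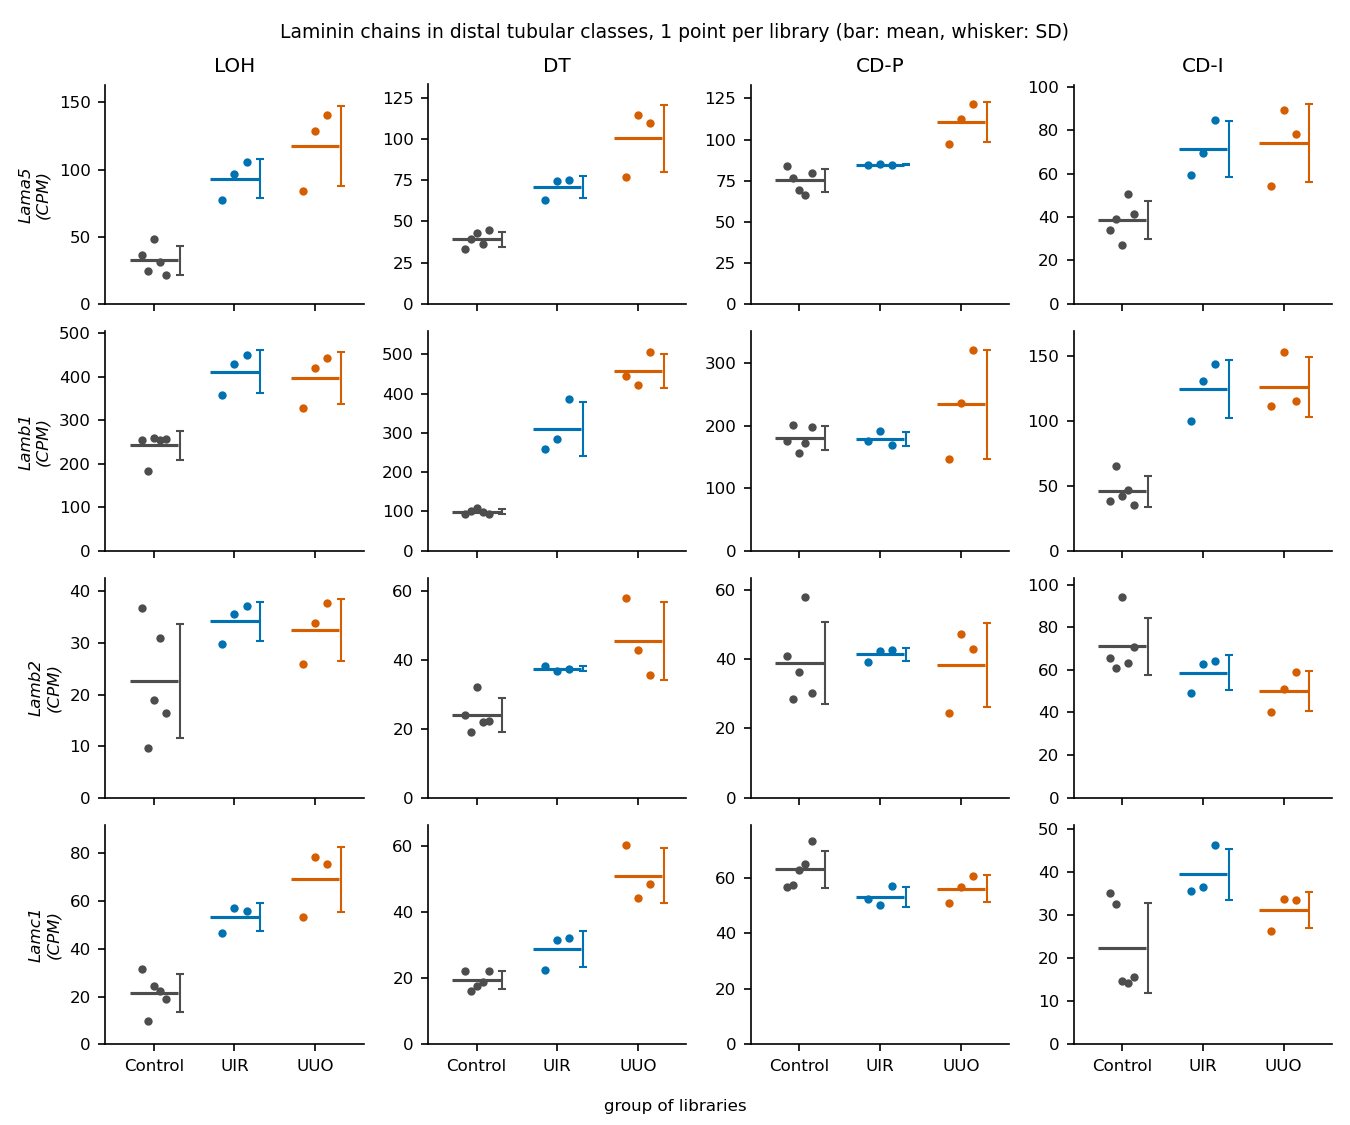
Levels of Lama5, Lamb1, Lamb2 and Lamc1 in CPM (rows) in pools of LOH, DT, CD-P and CD-I (columns) by group, with 1 point per library, a bar at the mean and a whisker of 1 SD. Lama5 and Lamb1 lie above all controls in both injuries in LOH, DT and CD-I, and Lamb2 in CD-I lies lower in UUO than in controls.

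In intercalated cells Lamb1 rose in both injuries and Lamb2 fell in UUO. Lamb1 was at 38.3, 65.5, 41.9, 46.7 and 35.4 CPM in controls, 99.7, 130.2 and 143 CPM in UIR and 111, 153 and 115 CPM in UUO. Every injured library lay above every control, with log2 changes of 1.16 (SE 0.17, adjusted p = 3.89e-05) and 1.17 (SE 0.18, adjusted p = 3.18e-05). Lamb2 was at 65.7, 61.1, 94.3, 63 and 70.8 CPM in controls, 49.3, 62.7 and 63.9 CPM in UIR and 40.4, 51.1 and 59.2 CPM in UUO. The UUO libraries lay below all controls and the UIR libraries overlapped them, with log2 changes of -0.58 (SE 0.16, adjusted p = 0.0115) and -0.81 (SE 0.17, adjusted p = 0.00121). Scaled by the UMI total these were -0.26, adjusted p = 0.22 and -0.45, adjusted p = 0.0442, so the UIR call was lost with that scaling. DESeq2 and RLE size factors kept it. The Lamb1 share of β chain UMIs, a ratio within a pool that no scaling can move, was 39 ± 8.36% in controls (range 30.8 to 51.7%), 67.9 ± 1.17% in UIR (66.9 to 69.2%) and 71.4 ± 4.77% in UUO (66 to 74.9%).

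**Figure D3:**
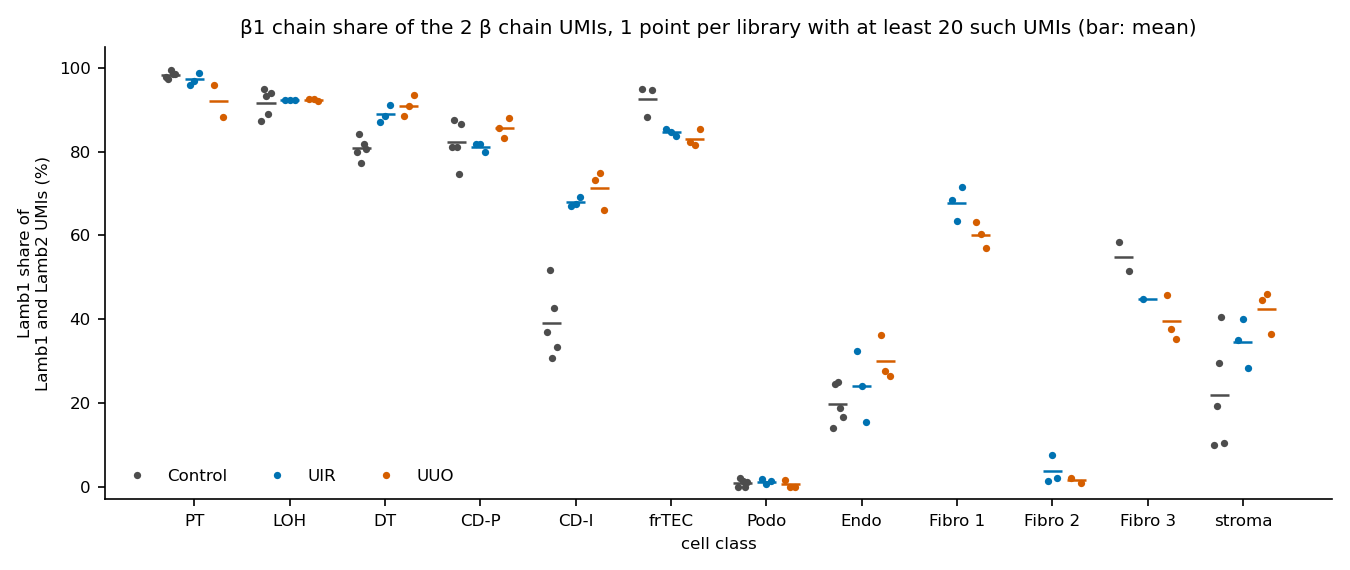
Share of β chain UMIs (Lamb1 plus Lamb2) that came from Lamb1, in percent, by cell class and group, with 1 point per library. In CD-I controls span 30.8 to 51.7%, UIR spans 66.9 to 69.2% and UUO spans 66 to 74.9%, and Podo stays at or under 2.02%.

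Lama5 in CD-I was at 34, 39.3, 27.2, 50.8 and 41.3 CPM in controls, 59.3, 69.5 and 84.9 CPM in UIR and 54.5, 89.3 and 78.5 CPM in UUO. The injured libraries lay above the controls (0.59, SE 0.19, adjusted p = 0.0258 in UIR and 0.66, SE 0.19, adjusted p = 0.0134 in UUO). Lamc1 was at 22.5 ± 10.5, 39.5 ± 5.87 and 31.2 ± 4.25 CPM and did not pass the test (adjusted p = 0.198 and 0.844), though it was called in UIR by the UMI total (0.73, adjusted p = 0.0207) and without Ctrl, UIR and UUO together (0.75, adjusted p = 0.0456). Altogether 3 of 4 members changed in UIR (all genes: 22.3%) and 3 of 4 in UUO (all genes: 27.5%). Control pools held 35 to 67 cells, and with at least 50 cells a pool the Lama5 calls and the UIR call for Lamb2 were lost. So were Lama5 in UIR without Ctrl, N2 or UIR2 (adjusted p up to 0.115), Lama5 in UUO without Ctrl or UUO1 (up to 0.0783) and Lamb2 in UIR without the library UIR (up to 0.122).

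In principal cells, which lie beside them in the same duct, Lama5 was called, in UUO. Lama5 was at 83.8, 76.4, 69.5, 66.4 and 79.6 CPM in controls, 84.5, 85.1 and 84.6 CPM in UIR and 97.4, 113 and 122 CPM in UUO. The UUO libraries lay above all controls (0.44, SE 0.14, adjusted p = 0.0158) and UIR did not pass the test (0.09, SE 0.14, adjusted p = 0.723). Lamb1 was at 180.1 ± 18.9 CPM in controls, 179 ± 11.8 CPM in UIR and 146, 236 and 321 CPM in UUO (adjusted p = 0.79 and 0.302). The library UUO was the low one, and without Ctrl, UIR and UUO together Lamb1 was called higher in UUO than in controls (0.47, adjusted p = 0.0191) and than in UIR (0.57, adjusted p = 0.0497). Lamc1 was at 63.1 ± 6.68, 53.2 ± 3.57 and 56.2 ± 4.91 CPM (adjusted p = 0.144 and 0.181). By edgeR 0 of 4 members changed in UIR (all genes: 19.1%; 1 at an unadjusted p under 0.05, 0 by DESeq2) and 1 of 4 in UUO (all genes: 31.4%). The Lama5 call was lost without AN1 and with a mitochondrial limit of 15% or 50% (adjusted p up to 0.236), and the difference between CD-P and CD-I was not tested.

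Endothelial, stromal and immune marker genes were counted in these pools, with every set given for LOH only. Sums for markers of neighbouring tubular classes are not given, and carry-over between tubular classes was not tested. In LOH the 6 endothelial markers summed to 2.71 to 4.85 CPM in control pools, 4.49 to 11 after UIR and 12.4 to 20.3 after UUO, against 7248 to 10123 CPM in control Endo. The 11 stromal markers summed to 0 to 5.01, 10 to 17 and 12.3 to 28.1 CPM in LOH and to 0 to 8.75, 6.89 to 14.4 and 14.7 to 31.4 CPM in DT, and the 13 immune markers to 5.01 to 19.4, 37.1 to 148 and 60.2 to 94.1 CPM in LOH and 5.42 to 27.3, 42.7 to 72.1 and 40.7 to 85.6 CPM in DT. In CD-I the stromal markers summed to 12.2 to 65, 53.8 to 98.4 and 23.6 to 47 CPM. With the empty-droplet profile subtracted, each call against control for Lama5, Lamb1, Lamb2 and Lamc1 in LOH, DT and CD-I was kept.

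In the proximal tubule cells that remained, 1 member passed the test, in UUO. The median log2 change of the 6 members tested was 0.20 in UIR and 0.63 in UUO, where that of all genes was -0.01 and -0.04. Lama1, the tubular α1 chain, was at 9.4 ± 1.9 CPM in controls, 11.8 ± 3.98 in UIR and 8.14 ± 9.68 in UUO (adjusted p = 0.552 and 0.996). Lamb1 was at 48.1 ± 5.86, 52.4 ± 14 and 72.5 ± 34.4 CPM (adjusted p = 0.826 and 0.418). Nid2 was at 5.4 ± 1.46, 5.75 ± 1.7 and 10.6 ± 1.47 CPM, and Lamb2 at 0.8 ± 0.421, 1.38 ± 0.64 and 6.5 ± 2.59 CPM, without a call (adjusted p = 0.465 and 0.0524 in UUO). Lamc1 was called in UUO (1.27, SE 0.36, adjusted p = 0.0393), at 9, 6.48, 6.63, 7.48 and 9.63 CPM in controls and 16.7, 22.5 and 23.6 CPM in UUO. That call rests on 18 UMIs, and its libraries lie near the 18.4 ± 3.1 CPM of T/NK cells and the 23.1 to 47.6 CPM of empty droplets in UUO. In UIR T/NK cells held 19.1 ± 2.23 CPM and empty droplets 8.49 to 18.9 CPM, and whether the T/NK level comes from RNA outside cells was not tested. The call for Lamc1 was lost in 9 of 20 alternatives, among them leaving out N1, N2, AN1, UIR2 or any UUO library (adjusted p up to 0.352). In UIR 0 of 6 members changed by edgeR (all genes: 6.88%; 0 at an unadjusted p under 0.05, 0 by DESeq2), and in UUO 1 of 6 (all genes: 7.26%; 2 by DESeq2, with Lamb2 the other, which by the UMI total was called too: 3.11, adjusted p = 0.0383). UUO pools held 28 to 52 PT cells against 1003 to 1389 in controls.

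In frTEC the nidogen Nid2 and the β1 chain fell in both injuries. Nid2 was at 90.5, 139.6 and 189 CPM in the 3 control pools, 33.4, 19.2 and 24 CPM in UIR and 26.4, 12.8 and 20 CPM in UUO. Every injured pool lay below every control pool, with log2 changes of -2.43 (SE 0.33, adjusted p = 0.0002) and -2.86 (SE 0.34, adjusted p = 8.58e-05). Lamb1 was at 434, 296 and 693 CPM in controls, 184, 181 and 208 CPM in UIR and 167, 209 and 206 CPM in UUO, also without overlap, with log2 changes of -1.27 (SE 0.23, adjusted p = 0.0017) and -1.31 (SE 0.23, adjusted p = 0.0014). The class was not the same mixture in each group. A sub-cluster marked by Slc14a2, a urea transporter, made up 79.5 ± 13.4% of control frTEC, 25.8 ± 9.98% in UIR and 19.3 ± 13.2% in UUO, where sub-clusters marked by Vcam1 (46.7 ± 9.64% and 41.6 ± 11.1%) and by Tagln (27.1 ± 6.82% and 33.1 ± 1.64%) were more frequent.

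Within the Slc14a2 sub-cluster, a test added after the whole class had been seen, both genes were lower after injury. Nid2 was at 97.2 and 212 CPM in the 2 control pools that reached 20 cells, 74.6, 51.7 and 65 CPM in UIR and 54.7 and 24.9 CPM in UUO, and its log2 change was -1.33 (SE 0.31, adjusted p = 0.0144) and -1.88 (SE 0.39, adjusted p = 0.00589). Lamb1 went from 607 ± 205 to 349 ± 45.2 CPM in UIR (-0.84, SE 0.22, adjusted p = 0.0273) and 327 ± 9.91 CPM in UUO (-0.96, SE 0.25, adjusted p = 0.0287). Thus 2 of 5 members tested changed in each injury (all genes: 5.99% and 5.47%). At Leiden resolution 2 the whole-class Lamb1 calls were lost (adjusted p = 0.137 and 0.0652). The 11 stromal markers summed to 6.51 to 419 CPM in control frTEC, 1111 to 2063 in UIR and 1426 to 2009 in UUO, and their part in the whole-class result was not tested.

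The sub-clusters of frTEC that were frequent after injury are described here by levels, since neither had a control pool, and between them no test was made. Nid2 was at 32.4 ± 4.84 and 28.2 ± 7.26 CPM in the Tagln sub-cluster and 9.14 ± 2.18 and 9.34 ± 3.45 CPM in the Vcam1 sub-cluster (UIR and UUO), and Lamb1 at 181 ± 45 and 217 ± 89.5 CPM against 137 ± 23.5 and 159 ± 35.7 CPM. The Tagln sub-cluster held 150.3 ± 24 CPM of Nid1 in UIR and 152 ± 13.8 in UUO, 124 ± 16.8 and 129 ± 16.9 CPM of Lamc1, and 44.1 ± 5.26 and 52 ± 10.5 CPM of Lama1, the highest mean Lama1 levels of any class or sub-cluster examined. The Vcam1 sub-cluster held 18.2 ± 1.73 and 11.4 ± 2.05 CPM of Nid1, 20.6 ± 1.82 and 31 ± 10.2 CPM of Lamc1, and 14.9 ± 2.78 and 14.5 ± 4.33 CPM of Lama1. In whole frTEC Lamc1 was at 38 ± 26.6, 50.2 ± 7.57 and 62.6 ± 14.1 CPM in control, UIR and UUO, without a call (0.67, SE 0.34, adjusted p = 0.217 in UUO), but it was called in UUO without Ctrl, UIR and UUO together (1.49, adjusted p = 0.043). Lama4 in the whole class had 0 UMIs in controls and 70 in UUO (8.17 ± 2.69 CPM, adjusted p = 0.0401), at least 2.06-fold higher on a floor of 3 UMIs over the control group. The empty droplets of UUO held 8.9 to 18.5 CPM of it, UUO macrophages 2.52 ± 0.554 CPM and UUO T/NK cells 0.749 ± 0.993 CPM. The call was lost in 7 of 20 alternatives, among them leaving out Ctrl, N2, AN2, UIR2, UUO1 or UUO2 (adjusted p up to 0.119). Members changed in 2 of 8 tests in UIR (all genes: 15%) and 3 of 8 in UUO (all genes: 15.2%).

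In podocytes, whose membrane is the filter of the kidney, no member passed the test. Lamb2 was at 278, 337, 302, 298 and 300.4 CPM in controls, 327, 351 and 313 CPM in UIR and 279.6, 380.2 and 419 CPM in UUO. The groups overlapped, and the log2 change was 0.13, SE 0.13, adjusted p = 0.885 in UIR and 0.25, SE 0.14, adjusted p = 0.422 in UUO. Lama5, the α chain of the same trimer, was at 89.3 ± 12, 89.7 ± 27.6 and 120.2 ± 34.7 CPM (adjusted p = 0.999 and 0.356), and Lamc1 at 44.5 ± 10.6, 61.2 ± 14.3 and 66.1 ± 8.09 CPM (adjusted p = 0.726 and 0.399). Lamb1 remained at 2.9 ± 2.95, 3.93 ± 2.06 and 1.58 ± 2.74 CPM, at most 2.02% of β chain UMIs in any pool. By edgeR 0 of 3 members changed in either injury (all genes: 0.833% in UIR and 2.65% in UUO; 0 at an unadjusted p under 0.05, 0 by DESeq2), in pools of 32 to 71 cells in controls and 41 to 75 in UUO.

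In the endothelium the α4 and γ1 chains and both nidogens rose in UUO. Lama4 was at 80.3, 42.3, 52.9, 58.8 and 49.8 CPM in controls, 86.1, 83.6 and 97.9 CPM in UIR and 123, 139.7 and 134 CPM in UUO. The 3 groups did not overlap, and the log2 change was 1.09, SE 0.15, adjusted p = 3.59e-05 in UUO and 0.57, SE 0.15, adjusted p = 0.0554 in UIR. The UIR change was called in 5 alternatives, DESeq2 among them, and without Ctrl, UIR and UUO together (0.77, adjusted p = 0.00665). The difference between the injuries (0.52, SE 0.14, adjusted p = 0.0636) was called in 6 and in the latter fit (0.53, adjusted p = 0.035). Lamc1 was at 170.4, 164, 119, 118 and 128 CPM in controls, 134, 149.5 and 157 CPM in UIR and 197, 281 and 346 CPM in UUO. Here UIR overlapped the controls and UUO lay above both (0.87, SE 0.16, adjusted p = 0.000733 against control).

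The nidogens followed the same order. Nid1 was at 120.1, 116, 104, 88.1 and 73.3 CPM in controls, 108, 125 and 125 CPM in UIR and 159, 246 and 248 CPM in UUO. Nid2 was at 30.9, 35.3, 39.7, 35.3 and 32.3 CPM in controls, 32.7, 39.5 and 27.7 CPM in UIR and 51, 81.8 and 81.2 CPM in UUO. For both genes all UUO libraries lay above all others, with log2 changes of 1.01 (SE 0.16, adjusted p = 0.000163) for Nid1 and 0.96 (SE 0.19, adjusted p = 0.00143) for Nid2. The 4 UUO calls held in all 23 alternatives. Between the injuries UUO was higher than UIR for Lamc1 (0.85, SE 0.17, adjusted p = 0.00728), Nid1 (0.82, SE 0.16, adjusted p = 0.00833) and Nid2 (1.05, SE 0.18, adjusted p = 0.00274), and only the Nid1 difference was lost in an alternative, without UUO1 (adjusted p = 0.0541). These are 3 of 7 members (all genes: 2.71%).

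The other endothelial chains did not pass the test. Lama5 was at 86.8 ± 5.83, 87.7 ± 18 and 108 ± 22.2 CPM (adjusted p = 0.459 in UUO), Lamb2 at 217 ± 23.5, 196 ± 37.2 and 199 ± 43.2 CPM (adjusted p = 0.42), and Lamb1 at 53.7 ± 16.2, 60.4 ± 17.1 and 83.2 ± 2.11 CPM (adjusted p = 0.0867; by the UMI total 0.66, adjusted p = 0.0343). As a share of Lama4 and Lama5 UMIs, Lama4 made up 39.1 ± 5.17% in controls, 50.7 ± 2.88% in UIR and 55.4 ± 4.15% in UUO. By edgeR 0 of 7 members changed in UIR (all genes: 2.08%; 1 at an unadjusted p under 0.05, 1 by DESeq2) and 4 of 7 in UUO (all genes: 12.7%). The 11 stromal markers summed to 7.35 to 18.4 CPM in control Endo, 37.8 to 108 in UIR and 49.1 to 237 in UUO, and the 13 immune markers to 1.47 to 9.71, 68.5 to 98.6 and 87.1 to 168 CPM. Their part in the result was not tested, and the 4 calls were kept with the empty-droplet profile subtracted.

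Vessel types were then separated by markers of glomerular (Ehd3, Plat), peritubular (Plvap, Igfbp5) and arterial (Sox17, Gja5) endothelium, a step added after the whole class had been seen. Arterial cells were 29.8 ± 3.27% of Endo in controls, 24.9 ± 1.45% in UIR and 15.4 ± 1.13% in UUO. Endo held 705 control, 1400 UIR and 1879 UUO cells. Of these 212, 293 and 505 were named glomerular, 233, 450 and 524 peritubular and 210, 347 and 291 arterial. The rest took none of these names and were a larger part of Endo after injury. In glomerular endothelium Lama4 was at 58.3, 52.6, 42.9, 72.4 and 28.3 CPM in controls, 129, 128 and 143 CPM in UIR and 149, 165 and 164 CPM in UUO. It rose in both injuries without overlap (1.33, SE 0.21, adjusted p = 0.000153 in UIR and 1.55, SE 0.20, adjusted p = 1.02e-06 in UUO). Lamc1 was at 121, 162, 110.3, 131 and 153 CPM in controls, 139.6, 190.4 and 247 CPM in UIR and 226, 494 and 543 CPM in UUO, and rose in UUO (1.56, SE 0.23, adjusted p = 9.32e-06). Nid1 rose there from 118 ± 24 to 268 ± 68 CPM (1.10, SE 0.18, adjusted p = 6.14e-05), Nid2 from 60.8 ± 17.3 to 139 ± 41.4 CPM (1.15, SE 0.23, adjusted p = 0.000731) and Lama5 from 57.4 ± 15.9 to 103 ± 33.7 CPM with overlapping libraries (0.74, SE 0.24, adjusted p = 0.0406). The counts were 1 of 7 members in UIR (all genes: 2.81%) and 5 of 7 in UUO (all genes: 11.4%).

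In peritubular endothelium the β1 chain rose most. Lamb1 was at 8.68, 36.5, 13.1, 0 and 38.9 CPM in controls, 8.6, 25 and 7.79 CPM in UIR and 113, 100.3 and 129.9 CPM in UUO. All UUO libraries lay above all others, with a log2 difference of 2.67, SE 0.39, adjusted p = 4.2e-06 against control and 2.91, SE 0.33, adjusted p = 1.38e-07 against UIR. The UMIs behind these levels were 16 in controls, 31 in UIR and 359 in UUO. The empty droplets of UUO held 59.1 to 96.6 CPM, which is not the level that RNA outside cells adds to a pool. Tubular cells held 79.7 ± 3.56% of Lamb1 UMIs in UUO, and sums of tubular markers in endothelial pools are not given. The source of the peritubular UMIs was not tested. In glomerular endothelium the same gene was lower in UUO than in UIR, at 93.7 ± 5.95 against 155 ± 6.08 CPM (-0.77, SE 0.18, adjusted p = 0.0105), with controls at 123 ± 26.1 CPM. Peritubular Lama4 was at 159 ± 34.5, 141 ± 7.32 and 207 ± 9.91 CPM and did not pass the test in UIR (-0.20, SE 0.18, adjusted p = 0.73) or UUO (0.31, SE 0.17, adjusted p = 0.285). Lamc1 (0.82, SE 0.21, adjusted p = 0.00539) and Nid1 (0.91, SE 0.19, adjusted p = 0.000816) rose in UUO. By edgeR 0 of 7 members changed in UIR (all genes: 4.48%; 0 at an unadjusted p under 0.05) and 3 of 7 in UUO (all genes: 12.8%).

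Arterial endothelium had little Lama4 in controls, at 10.2, 0, 7.07, 0 and 9.1 CPM, and more after injury, at 27.7, 27 and 39.5 CPM in UIR and 47.4, 25.8 and 66.4 CPM in UUO. The change passed the test in both (2.38, SE 0.52, adjusted p = 0.0136 in UIR and 2.93, SE 0.49, adjusted p = 0.000409 in UUO) and rests on 8 control UMIs. Lamb1 had 2 UMIs over all control pools and reached 22.1 ± 2.49 CPM in UUO, a ratio of 15.5 with a 95% counting interval of 4.08 to 131 (adjusted p = 0.0209). That level lies below the 59.1 to 96.6 CPM of empty droplets in UUO. It lies above the 1.58 ± 2.74 CPM of Podo, 3.75 ± 1.525 CPM of T/NK cells and 7.62 ± 3.42 CPM of macrophages in UUO. The source of these UMIs was not tested. Lamc1 was at 143 ± 31, 140.0 ± 12.5 and 148 ± 29.1 CPM and did not pass the test in UUO (adjusted p = 0.998). The counts were 1 of 7 members in UIR (all genes: 1.54%) and 2 of 7 in UUO (all genes: 4.36%).

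**Figure D4:**
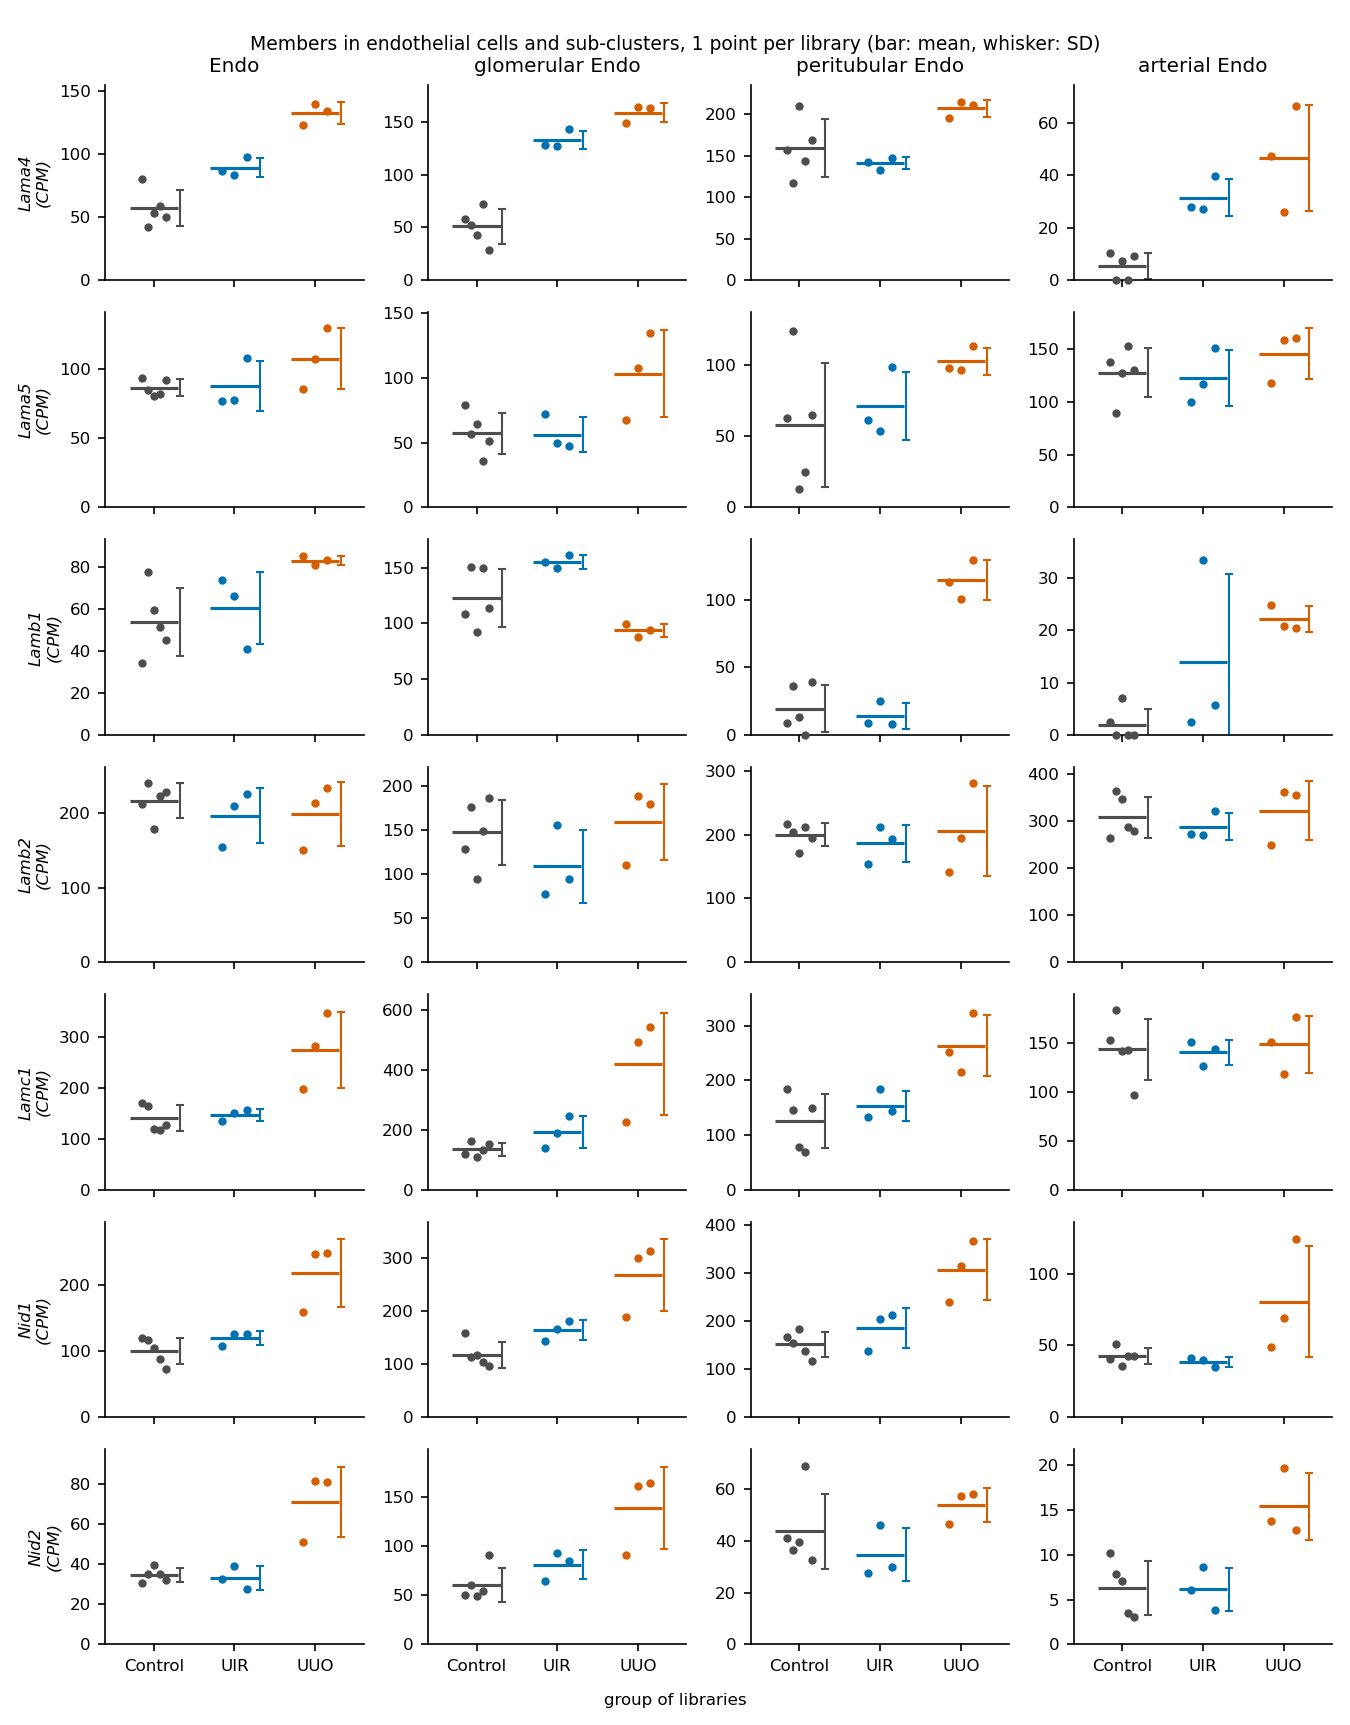
Levels of 7 members in CPM in all Endo pools and in the glomerular, peritubular and arterial sub-clusters by group, with 1 point per library, a bar at the mean and a whisker of 1 SD. Lamc1, Nid1 and Nid2 in Endo are highest in UUO, Lama4 rises in both injuries in glomerular and arterial cells, and peritubular Lamb1 is high in UUO alone among the 3 groups.

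In the stroma taken as a whole the α2 chain rose most. Lama2, best known from muscle, was at 34.7, 10.2, 5.04, 0 and 15.7 CPM in controls, 117, 182 and 169 CPM in UIR and 167, 227 and 173 CPM in UUO. Every injured library lay above every control, with log2 changes of 3.37 (SE 0.37, adjusted p = 4.17e-06) and 3.60 (SE 0.36, adjusted p = 1.02e-06), from 16 UMIs in all controls. Lamc1 rose from 50.5 ± 26.8 to 111 ± 16.1 CPM in UIR (1.17, SE 0.29, adjusted p = 0.00789) and 142 ± 22.3 CPM in UUO (1.48, SE 0.28, adjusted p = 0.000829). Lamb1 rose from 73.3 ± 35.3 to 117 ± 21.3 CPM in UIR with overlapping libraries (0.85, SE 0.27, adjusted p = 0.0371) and to 167 ± 32.3 CPM in UUO (1.31, SE 0.26, adjusted p = 0.00117). Lama4 rose in UUO from 24.1 ± 20.4 to 65.4 ± 10.3 CPM (1.27, SE 0.42, adjusted p = 0.0384). Nid1, at 252 ± 87.7, 312 ± 45.9 and 359.9 ± 61.1 CPM, and Lamb2, at 281 ± 81.8, 225 ± 48.4 and 229.5 ± 56.5 CPM, did not pass the test against control (adjusted p = 0.0589 and 0.456 in UUO). In all 3 of 8 members changed in UIR (all genes: 14.6%) and 4 of 8 in UUO (all genes: 19.1%). By the UMI total the UIR change of Lamb1 was 0.78, adjusted p = 0.0621. The UIR call for Lamb1 was lost in 8 of 22 alternatives, among them leaving out Ctrl, N1, AN2, UIR1, UIR2 or UUO2 (adjusted p up to 0.213), and the UUO call for Lama4 without N2, AN1, AN2, UUO or UUO2 (up to 0.102).

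Whole-stroma sums mix classes whose numbers differed with injury. Fibro 1, the collagen-producing class, had 1 cell in all controls, 115 in UIR and 241 in UUO, so there is no control pool of it. A further 31 control, 360 UIR and 320 UUO stromal cells lay in clusters that took none of the 3 names, because they were shallow or held markers of more than 1 class. Lama2 in Fibro 1 was at 190.5, 214 and 264 CPM in UIR and 254, 309 and 258 CPM in UUO, against 22.4 ± 2.04 and 9.59 ± 1.02 CPM in Fibro 2 and 7.73 ± 2.68 CPM in control Fibro 3 (n = 2 pools). In the unnamed stromal cells it was at 203, 256 and 258 CPM in UIR, overlapping Fibro 1, and 159, 235 and 199 CPM in UUO. They held 62.1% of the 854 stromal Lama2 UMIs in UIR and 29.1% of 1115 in UUO, with 10 of the 16 in controls. One of their clusters, with markers of both Fibro 1 and Fibro 3, held 482 of those UMIs in its 162 UIR cells and had 1 cell in controls. Lama2 was detected in 81.5, 81.8 and 90.9% of Fibro 1 cells in UIR and 81.3, 82.6 and 67.7% in UUO. It was detected in 10.4, 7 and 10.6% of Fibro 2 cells in UIR, 6.98 and 9.52% in UUO, and 5 and 2.7% of control Fibro 3 cells. Whole-stroma sums alone do not separate more cells of these kinds from more Lama2 RNA per cell, and the part of each was not tested. Between the injuries Lama2 in Fibro 1 did not pass the test (0.27, SE 0.19, adjusted p = 0.622). Nid1 was at 310.2 ± 10.2 and 428 ± 77.7 CPM in Fibro 1, 508 ± 61.6 and 394 ± 77.1 CPM in the unnamed stromal cells, and 53.7 ± 32.4 and 25.5 ± 14.2 CPM in Fibro 2.

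Fibro 1 and the contractile Fibro 2 differed in their β chains, given as levels without a test. Fibro 2 held 391 ± 33.6 CPM of Lamb2 in UIR and 422 ± 183 in UUO (n = 2 pools), with 16 ± 15.8 and 5.54 ± 0.538 CPM of Lamb1 and 125 ± 19.8 and 152 ± 3.05 CPM of Lama5. Fibro 1 held 175 ± 26.2 and 233 ± 35 CPM of Lamb1, 83.4 ± 17.5 and 156 ± 33 CPM of Lamb2, and 1.91 ± 1.65 and 13 ± 2.11 CPM of Lama5. The α chain of Fibro 1 was thus mainly Lama2 and that of Fibro 2 mainly Lama5.

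Within Fibro 1 the α4 chain was higher in UUO than in UIR. Lama4 was at 19.9, 33.2 and 56.7 CPM in UIR and 88.6, 86 and 124 CPM in UUO, without overlap (1.46, SE 0.30, adjusted p = 0.00725), 1 of 7 members tested (all genes: 4.01%), and this was lost without the library UIR or without UIR1 (adjusted p up to 0.0984). Lamb2 in Fibro 1 was called too by the UMI total (0.86, adjusted p = 0.0418) and without Ctrl, UIR and UUO together (0.86, adjusted p = 0.0455). In Fibro 2 0 of 5 members differed between the injuries by edgeR (all genes: 0.0499%; 0 at an unadjusted p under 0.05, 0 by DESeq2). In Fibro 3 0 of 5 differed between UUO and control (all genes: 1.23%; 2 at an unadjusted p under 0.05, 0 by DESeq2), with Nid1 at 340.2 ± 118 and 339 ± 44 CPM. Nid2 in the whole stroma was at 32.1 ± 2.19 CPM in UUO against 15.7 ± 5.4 in UIR (0.99, SE 0.25, adjusted p = 0.0407), 1 of 8 members (all genes: 2.15%), and this was lost in 13 of 23 alternatives, among them leaving out Ctrl, N1, AN2, UIR, UIR1 or any UUO library (adjusted p up to 0.213).

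**Figure D5:**
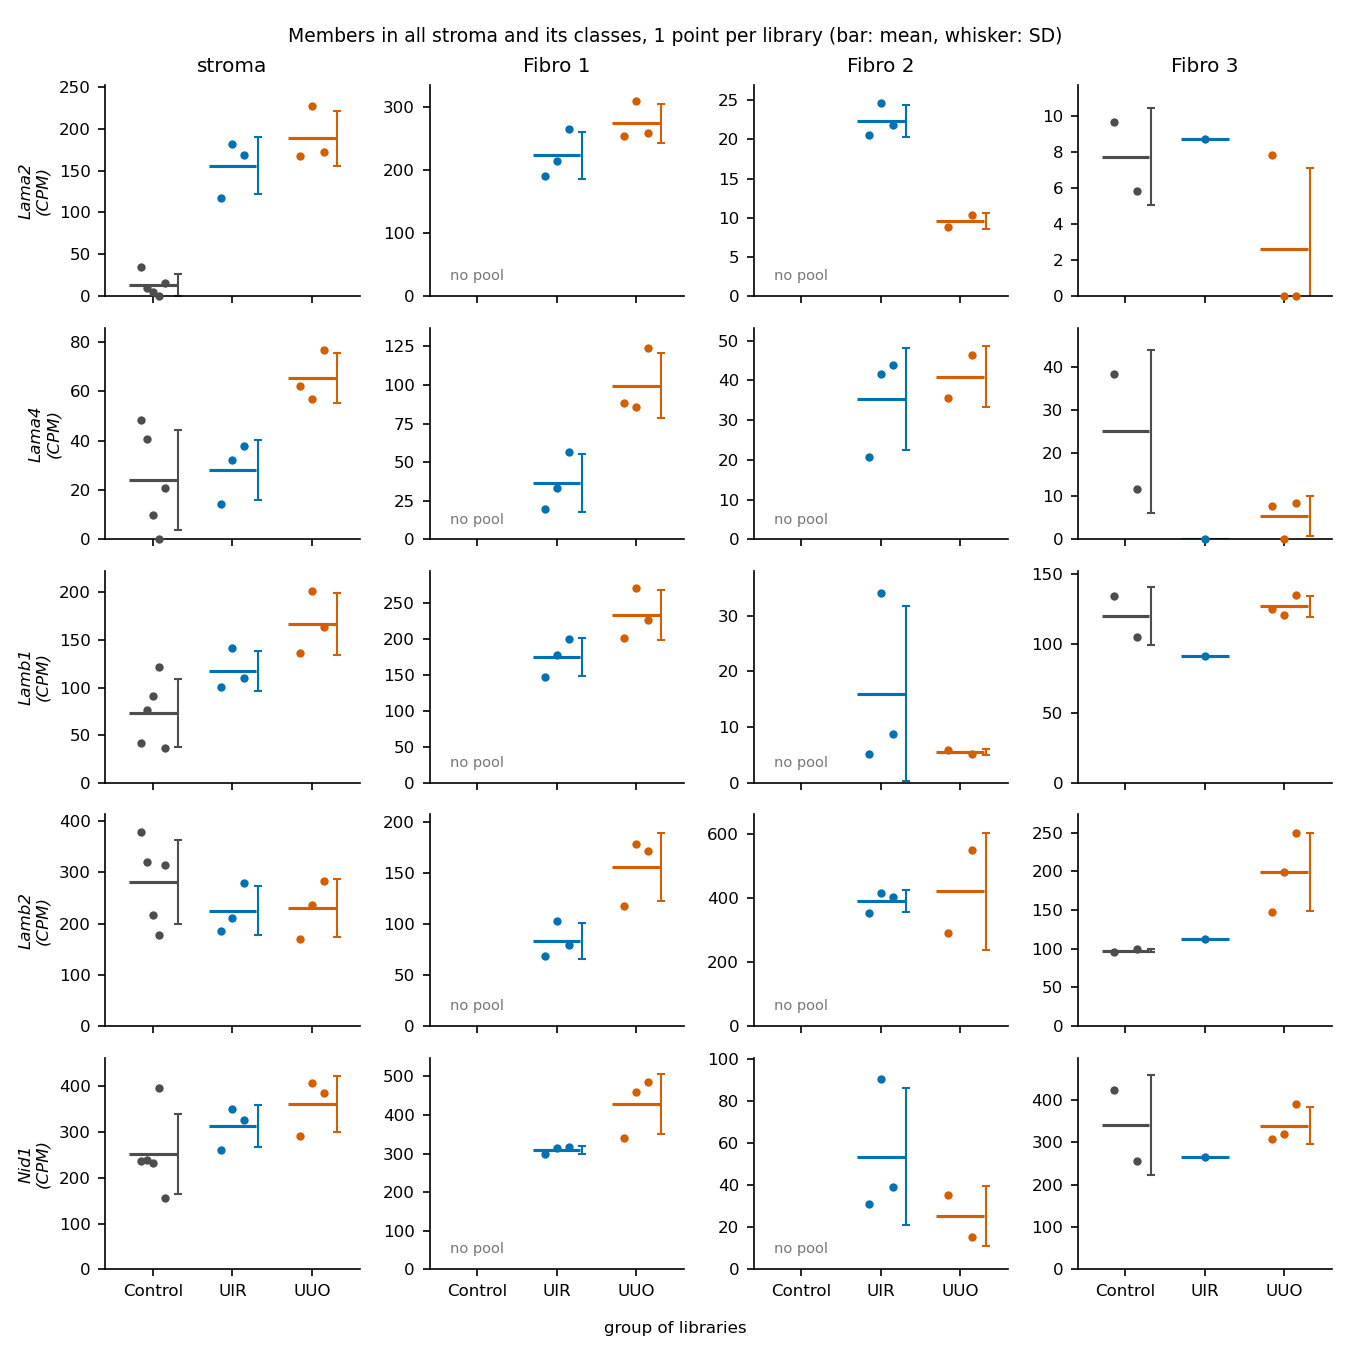
Levels of Lama2, Lama4, Lamb1, Lamb2 and Nid1 in CPM in whole stroma and in Fibro 1, Fibro 2 and Fibro 3 by group, with 1 point per library, a bar at the mean and a whisker of 1 SD, and a mark where a group has no pool. Lama2 is at 190.5 CPM or above in every Fibro 1 pool and far lower in Fibro 2 and Fibro 3, and Lamb2 is highest in Fibro 2.

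In the remaining classes no member was called between UUO and UIR by edgeR with all libraries, while Lamb1 in CD-P was called without the library UUO and Nid1 in LOH with doublets kept. The counts with all libraries were 0 of 6 in PT (all genes: 0.0278%), 0 of 7 in LOH (2.43%), 0 of 4 in CD-P (4.06%), 0 of 4 in CD-I (1.87%), 0 of 8 in frTEC (0.746%) and 0 of 3 in Podo (0%), with 2, 3, 1, 0, 0 and 0 of them at an unadjusted p under 0.05 and 0 in each class by DESeq2. For DT, where Lamb1 was 1 of 4 members called, the share of all genes was 6.7%. Within sub-clusters 3 of 7 members differed in glomerular endothelium (2.42%), 3 of 7 in peritubular (2.9%), 0 of 7 in arterial (0.488%; 2 at an unadjusted p under 0.05), 0 of 5 in the Slc14a2 sub-cluster (0.0713%; 0 at an unadjusted p under 0.05), 0 of 8 in the Tagln sub-cluster (0.0444%; 0 at an unadjusted p under 0.05) and 0 of 7 in the Vcam1 sub-cluster (1.64%; 2 at an unadjusted p under 0.05).

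Other genes of the basement membrane were counted from lists chosen by function, over the same classes, 8 for UIR and 9 for UUO. In these 16.6% of all pairs changed in UIR and 21.2% in UUO. Of 25 further matrix components, among them type IV collagens, perlecan and agrin, 52 of 114 pairs (45.6%), 40 up and 12 down, changed in UIR and 64 of 120 pairs (53.3%), 48 up and 16 down, in UUO. Of 13 receptors and their partners, 39 of 87 pairs (44.8%), 32 up and 7 down, changed in UIR and 45 of 96 pairs (46.9%), 40 up and 5 down, in UUO. Of 8 further laminin and netrin chains, 8 of 24 pairs (33.3%), 5 up and 3 down, changed in UIR and 13 of 24 pairs (54.2%), 7 up and 6 down, in UUO. Named below are genes among the largest fold changes of each class.

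In LOH Itga7, a laminin-binding integrin chain, had 0 UMIs in controls and 17.9 ± 1.07 CPM in UIR and 40.5 ± 1.86 in UUO. Lama3, the α3 chain of epithelial anchoring laminin, rose there from 0.564 ± 1.26 to 10.2 ± 2.59 CPM in UIR (3.97, SE 0.80, adjusted p = 0.000576) and 24.3 ± 1.35 CPM in UUO (5.20, SE 0.67, adjusted p = 2.18e-06). In DT Itgb4, the partner of Itga6, rose from 1.27 ± 1.66 to 65.4 ± 15 CPM in UUO (5.21, SE 0.39, adjusted p = 9.92e-11) and Sparc, a collagen-binding matricellular protein, from 1.62 ± 1.56 to 106 ± 28.6 CPM (5.20, SE 0.38, adjusted p = 4.67e-11). In CD-I the proteoglycan Sdc1 rose from 19.4 ± 4.61 to 102 ± 15.3 CPM in UUO (2.12, SE 0.19, adjusted p = 2.66e-08). In CD-P, where Lamb1 and Lamc1 did not pass the test, the laminin receptor chain Itga6 rose from 23.4 ± 8.8 to 183 ± 27.9 CPM in UIR (2.86, SE 0.20, adjusted p = 1.19e-09). There 4 of 12 receptors rose and 2 fell, and 3 of 15 further matrix components rose and 4 fell (all genes: 19.1% in either direction). In frTEC Tinagl1, a matrix glycoprotein, fell from 446 ± 57.1 to 83.7 ± 1.45 CPM in UUO (-2.42, SE 0.18, adjusted p = 2.77e-06), and Itga6 rose from 14.2 ± 12.6 to 118 ± 18.3 CPM (3.29, SE 0.38, adjusted p = 5.79e-05). Of 11 receptors tested in frTEC, 1 rose and 4 fell in UIR (all genes: 15% in either direction), and 1 rose and 2 fell in UUO (15.2%).

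In UUO podocytes, where no member was called, Col18a1 rose from 404 ± 53.5 to 689.6 ± 128 CPM (0.73, SE 0.14, adjusted p = 0.00329), the heparan sulfate proteoglycan Agrn from 134 ± 12.5 to 229 ± 16.4 CPM (0.70, SE 0.14, adjusted p = 0.00362) and Bcam, a receptor for the α5 chain, from 590.1 ± 56.9 to 886 ± 100.5 CPM (0.56, SE 0.12, adjusted p = 0.00956). In Endo 4 of the 16 further matrix components tested rose in UUO and 3 fell (all genes: 12.7% in either direction). Those that fell, named after their values were seen, were Tinagl1, from 486 ± 63.6 to 243 ± 7.78 CPM (-1.10, adjusted p = 3.34e-06), Npnt, from 202 ± 99.4 to 103 ± 25.6 CPM (-1.08, adjusted p = 0.0237), and Fbln2, from 209 ± 48.6 to 149 ± 26.6 CPM (-0.59, adjusted p = 0.0279). The type IV collagen chain Col4a1 rose from 615 ± 129.7 to 1806 ± 418 CPM (1.45, SE 0.16, adjusted p = 2.73e-06) and Col4a2 from 335 ± 30.8 to 1134 ± 282 CPM (1.66, SE 0.14, adjusted p = 1.59e-07). In peritubular endothelium another chain of that family, Col4a3, fell from 54.5 ± 32.5 to 17.9 ± 6.95 CPM in UUO (-1.67, SE 0.38, adjusted p = 0.00194), and Col18a1 rose from 3.37 ± 5.44 to 153 ± 55.4 CPM in UUO (5.09, SE 0.46, adjusted p = 4.22e-10). In the whole stroma Col15a1, a basement membrane zone collagen, went from 3.82 ± 6.06 to 693 ± 185 CPM in UIR (7.17, SE 0.42, adjusted p = 4.02e-09). In Fibro 1 Ntn4, a netrin related to laminin, was at 20.8 ± 4.99 CPM in UIR and 83.6 ± 14.3 CPM in UUO (2.01, SE 0.29, adjusted p = 0.000261).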

How the data were processed

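Single-cell suspensions of 11 mouse kidneys were sequenced as 10x 3′ libraries. For each the authors deposited UMI counts per gene and barcode, made with Cell Ranger 3.1.0 on mm10 by the submitters' processing notes, as matrices of all barcodes without cell calls or cell type labels. The study also removed free RNA and doublets, steps that are not in these matrices.

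Barcodes were called as cells against the empty-droplet profile (at least 500 UMIs, 10000 simulations, adjusted p under 0.01) and kept with at least 200 genes, at most 30% mitochondrial and 5% hemoglobin UMIs. The 7.5% of cells most like simulated doublets were left out. Cells were clustered on 2000 variable genes and 40 components (20 neighbours, Leiden resolution 1, igraph 0.11.9, scikit-learn 1.9.0) and named from fixed marker lists. Members, listed genes, markers and mitochondrial genes were kept out of the variable genes. Tubular and unnamed cells, stroma and Endo were clustered again in subsets before the final names were given. The naming rule was revised after the marker tables had been seen.

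UMI counts were summed per class and library (at least 20 cells) and tested with edgeR 4.0.16 (R 4.3.3), using filterByExpr, TMM and the quasi-likelihood test, with the 3 groups in 1 model and Benjamini-Hochberg adjustment over all genes of the class. Values ± are SD over libraries, and counting intervals and floors cover counting error only. SE was derived from the quasi-likelihood test, as the absolute log2 change divided by the square root of its F statistic. On simulated counts, 17 to 33 of 100 genes changed by 1 log2 unit and 81 to 100 of 100 changed by 2 were recovered across PT, LOH, Endo and stroma. The simulation gave every gene the same spread and changed only genes with a mean of at least 20 CPM. It changed 100 genes at each size, of 11470 tested in LOH, where 31.1% (UIR) and 36.7% (UUO) of genes were called in the data. A larger part of changed genes eases the adjusted threshold. These rates therefore do not measure the power for members at lower levels, with another spread or in classes where many genes changed. Alternatives were RLE size factors, DESeq2 1.42.0, no low-count filter, a replicate block, larger pools, only the groups compared, each library left out, other mitochondrial and UMI limits, doublets kept, Leiden resolution 2 and free RNA subtracted. Tests within sub-clusters of Endo and frTEC, and fits without the libraries Ctrl, UIR and UUO together and with scaling by the UMI total, were added after seeing the data.

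The members and gene lists were chosen with earlier results of these data known. Genes outside the 9 members were named by rule: per class and comparison, up to 3 genes of the fixed lists with the largest fold changes among those past the threshold. Promoter sequence is from RefSeq.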

Additional observations from a re-analysis of the deposited data

Results flagged for a closer look

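In control LOH, the library N1 held 184.2 CPM of Lamb1 while the other 4 controls lay between 253.6 and 259.7 CPM, a gap of 0.919 of the whole range. It was the only one of 41 groups of control values in which a library stood apart in this way, where chance gives about 1 in 20.

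Levels differed between UUO and UIR by a test of that difference, on the log2 scale, by 0.458 for Lamb1 in DT, 0.850 for Lamc1 in Endo, 1.046 for Nid2 in Endo, 0.815 for Nid1 in Endo, 1.455 for Lama4 in Fibro 1 and 0.991 for Nid2 in the whole stroma. Each was higher in UUO. In Fibro 1 there is no control pool, so the value is the difference between the injuries alone. The Lamb1 difference in DT and the Nid2 difference in the stroma were lost in most alternatives, 16 of 22 and 13 of 23.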

How the results depend on the processing

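The number of members called over those of the 11 classes that could be tested (10 for UIR versus control, 19 for UUO versus control, 5 for UUO versus UIR) depended most on which cells were pooled. With at least 50 cells a pool it was 6, 10 and 3. With a mitochondrial limit of 15% it was 4 and 8 against control, of 23 and 18 pairs that could still be tested, of which 2 and 7 were among the calls at 30%. UUO exceeded UIR in 8 pairs without the low-count filter, 4 of them among the 5, and in 8 with a limit of 50%. Leaving out 1 library gave 8 to 11, 14 to 20 and 3 to 6 calls, with 14 without UUO1 and 3 without the library UIR or without UIR1. The other alternatives stayed within 1.5 times the count. The share of all genes called was not counted for any alternative, so these counts have no background beside them. Calls held in each of these alternatives that gave a value for 5 of 10, 13 of 19 and 2 of 5 pairs, and none reversed, but alternatives with fewer pools gave no value for many pairs. Of the 33, 29 and 50 pairs not called, 9, 10 and 7 were called in at least 1 of them, and in 5 or more Lama4 in Endo (UIR versus control and UUO versus UIR) and Lamb2 in PT (UUO versus control). Without Ctrl, UIR and UUO together, chosen after seeing the data, 12, 19 and 7 pairs were called, 10, 16 and 4 of them among the calls above, and the calls for Lamc1 in PT and Lama4 in frTEC (UUO versus control) and for Lamb1 in DT (UUO versus UIR) were lost (adjusted p = 0.0624, 0.103 and 0.2), Nid1 in LOH had no value, and in the whole stroma Lamb1 in UIR and Nid2 between the injuries were lost (0.0828 and 0.184). That fit added calls for Lamc1 in CD-I and Lama4 in Endo (UIR versus control), Nid2 in LOH, lower, Lamb1 in CD-P and Lamc1 in frTEC (UUO versus control), and Lamb1 in CD-P, Lama4 in Endo and Lamb2 in Fibro 1 (UUO versus UIR). Scaled by the UMI total, also chosen then, 12, 22 and 8 pairs were called, 9, 19 and 5 of them among the calls above, and 10, 19 and 8 of them were higher. This lost Lamb2 in CD-I and Lamb1 in the whole stroma for UIR (0.22 and 0.0621). Within arterial endothelium the Lamc1 change in UUO was -0.006 (adjusted p = 0.998), against a rise in whole Endo, and the cause was not tested. With the replicate number as a block the counts were 10, 19 and 6. Whether the numbers pair UIR and UUO libraries is not shown: same-numbered libraries correlated at -0.15 to 0.63 over 30 pairs in 10 classes, and all pairs exceeded 0.1 in 2 classes. The unnumbered pair, UIR with UUO, exceeded 0.1 in 10 of 10 classes (0.16 to 0.63), and UIR correlated best with UUO in each, while pairs 1 and 2 exceeded it in 8 and 2. On simulated counts 17 to 33 of 100 genes changed by 1 log2 unit were recovered across PT, LOH, Endo and stroma, and CD-I and frTEC were not simulated. The changed genes were few and had means of at least 20 CPM, and every gene had the same spread, so these rates need not hold for a given member.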

Other observations

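Where the RNA of each gene came from differed between the groups, in shares that depend on how many cells of each kind were recovered (tubular cells were 66.4 to 70.4% of control cells, while UIR had 25.6 to 35.5% and UUO 12.7 to 17.3%). Tubular cells held 90.5 ± 2.06% of Lamb1 UMIs in controls, 86.4 ± 3.94% in UIR and 79.7 ± 3.56% in UUO. Of Lamc1 UMIs, the tubular share was 51 ± 6.44%, 58 ± 2.67% and 31.3 ± 5.98%, and the endothelial share 35.3 ± 6.73%, 20.5 ± 4.11% and 45.8 ± 6.2%. Podocytes held 29.1 ± 5.3% of Lamb2 UMIs in controls and 5.89 ± 1.57% in UUO. Of Nid2 UMIs, the tubular share was 65.4 ± 8.89% in controls and 16 ± 5.85% in UUO and the endothelial share 22.4 ± 5.4% and 59.6 ± 11.2%. Of Lama2 UMIs the stroma held 31.8 ± 23.3% in controls and 96.6 ± 1.14% in UUO. The control share rests on few UMIs, since all cells together held 0.218 to 0.804 CPM of Lama2 in control libraries. Over all controls 16 UMIs lay in the stroma, 9 in frTEC, of which 5 were in AN2, and 7 in PT, against 1115 in UUO stroma.

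Genes whose mean level over the 11 control pool classes ran most like a member's, by Pearson's r on log2(CPM + 1), were Fgd5 (r = 0.997), Clec14a and Tek for Lama4 and Fbn1 (r = 0.981), Serp2 and Bgn for Nid1, while for Lamb1 the closest was Hoxb2 (r = 0.949). The classes share libraries, so these values are descriptions without a test.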
